A study of Mus musculus with 6 samples.

Results

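The genes described here are 40 genes of homologous recombination and Fanconi repair, chosen by their symbols out of the 23940 gene symbols of the expression table. The rule uses symbols and no measured value, but the list was chosen with earlier results of these data known. Of the 40, 3 act mainly in other routes, the mismatch repair genes Msh6 and Pms2 and the base excision gene Ung, and Polq acts in theta-mediated end joining. RNA came from the sorted CD45-negative fraction of 6 YUMM1.7 tumours of C57BL/6 mice, 3 taken pre-treatment, with no MAPK pathway inhibitor, and 3 residual tumours taken on BRAF inhibitor (on-BRAFi). YUMM1.7 is a cultured mouse melanoma line with an activating Braf mutation, so both groups share that mutation and the C57BL/6 host. The sources used here do not give the drug's name, its dose, the days on drug or the age and sex of the mice. The numbers in the labels mark separate tumours, but separate mice are not stated, so p-values measure the spread between tumours.

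Homologous recombination repairs double-strand breaks by copying the sister chromatid. The broken ends are cut back to single strands, a protein filament assembled with the help of BRCA2 invades the sister, and the joined molecules are then taken apart. The Fanconi pathway detects crosslinks between DNA strands at stalled forks: a core complex attaches ubiquitin to FANCD2 and FANCI, which brings nucleases and the recombination proteins to the lesion. Both routes work mainly in S and G2 phase, and many of their genes are transcribed most in cycling cells.

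The libraries had total values of 562041 to 921297 FPKM before treatment and 414834 to 554684 FPKM on the inhibitor. FPKM is a fragment count scaled per transcript length and library size, and the read depth is unknown. Ptprc, which encodes CD45, was at 0.609, 1.09 and 2.18 FPKM before treatment and at 0.118, 1.10 and 0.809 FPKM on the inhibitor. Of the 7 melanocyte markers, Mlana, Dct and Tyrp1 were listed at 0 in all 6 libraries, and the summed level of the 7 was 8.23 to 12.5 FPKM before treatment and 25.5 to 27.9 FPKM on the inhibitor. Of the 2 melanocyte markers tested, Mitf rose, from 5.77 ± 1.40 to 21.5 ± 2.16 FPKM, and Tyr did not pass. Pmel and Sox10 were at most 0.738 and 0.114 FPKM in any library. The pigment-cell identity of the sorted cells is therefore not visible in Mlana, Dct, Tyrp1, Pmel or Sox10. Summed fibroblast markers (8 genes, 4 of which rose) were at 444 to 741 FPKM before treatment and 2949 to 3732 FPKM on the inhibitor. Dpt, Dcn, Lum and Col1a1 rose, and Pdgfra, Pdpn, Thy1 and Fap did not pass. Over all tested genes, 8.76% were called higher and 10.3% lower. Summed endothelial markers (6 genes, all of which rose) were at 15.3 to 24.1 and 60.1 to 104 FPKM, and summed pericyte markers (4 genes, of which 2 rose and 1 fell) at 11.5 to 16.9 and 19.6 to 28.5 FPKM. Leukocyte markers (8 genes, none called) summed to 13.0 to 15.7 and 10.4 to 25.2 FPKM, with Ncr1 at 0 throughout. Erythroid markers (4 genes, none called) summed to 21.7 to 53.9 and 20.7 to 1216 FPKM, and keratinocyte markers to at most 0.607 FPKM in any library. The part of this mix of cells in the results below was not tested. In such bulk samples, fewer cells of a type and less RNA per cell cannot be told apart.

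On BRAF inhibitor, 15 of the 38 tested repair genes fell and none rose. The genes that fell came from all 8 roles described below, among them end resection (Exo1), the BRCA1 complex (Brca1, Bard1), strand invasion (Rad54b, Rad51ap1) and the Fanconi core and its substrate (Fancl, Fancd2). The falls ran from 1.87-fold (Mre11a) to 9.57-fold (Exo1), and 8 of the 15 were at least 4-fold. The 15 are 39.5% of the tested members, where 10.3% of all 12075 tested genes were called lower and 8.76% higher. A gene was tested if its mean over the 6 libraries was at least 1 FPKM, and called if its adjusted p was below 0.05 (limma on log2(FPKM + 0.1), Benjamini-Hochberg adjustment over all tested genes). Fancf and Ung did not reach the filter. Of the genes that fell, Exo1, Fancd2, Polq, Rad54b, Rad51ap1 and Fanca had on-BRAFi means below 1 FPKM. These genes reached the filter only through their pre-treatment values, and the sizes of their falls depend on the 0.1 added. With a minimum mean of 5 FPKM, 14 members were tested and 4 fell, where 14.2% of all tested genes were lower. At an unadjusted p below 0.05, 21 members were lower and 0 higher, where 17.6% of all tested genes were lower and 16.6% higher.

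Most members were lower in direction. The log2 fold change was negative in 31 of the 38 tested genes and positive in 7, with a median of -0.99, and the median over all tested genes was -0.01. In 26 members all 3 on-BRAFi values lay below all 3 pre-treatment values, and in 3 members (Nbn, Xrcc3 and Mus81) all lay above; over all tested genes these patterns held in 19.5% and 20.9%. Per library, the median FPKM of the 40 members was 4.999, 3.99 and 4.71 before treatment and 2.18, 1.96 and 1.98 on the inhibitor. Their summed FPKM was 355, 319 and 298 before treatment and 192, 226 and 176 on the inhibitor. Neither summary overlapped between the groups in FPKM as deposited. Every pre-treatment library also had a higher total FPKM than every on-BRAFi library. With each library scaled to a total of 1000000, the members summed to 385, 520 and 530 before treatment and to 434, 407 and 425 on the inhibitor, which overlap, and their median was 5.43, 6.499 and 8.38 and then 4.93, 3.53 and 4.76, which do not. Most members were low, with 26 of them below a mean of 5 FPKM and a median of 3.31 FPKM.

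The size of the count depends on single libraries and on scaling. Rad54b and Fancl passed whichever library was left out, and the other 13 missed the threshold without at least 1 library. The number that fell was 7, 4 and 6 without pre-treatment tumour 1, 2 or 3, and 5, 10 and 8 without on-BRAFi tumour 1, 2 or 3. Lower calls over all tested genes dropped in the same fits, from 1249 to 767, 752 and 834 and to 629, 887 and 772. When each library was rescaled to the same total, 8 fell and Xrcc3 rose, where 4.29% of all tested genes were lower and 16.6% higher. That scaling moved the median of all tested genes to 0.53 and that of the members to -0.46, and Mre11a, Chek1, Bard1, Blm, Brip1, Msh6 and Polq no longer passed.

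**Figure D1:**
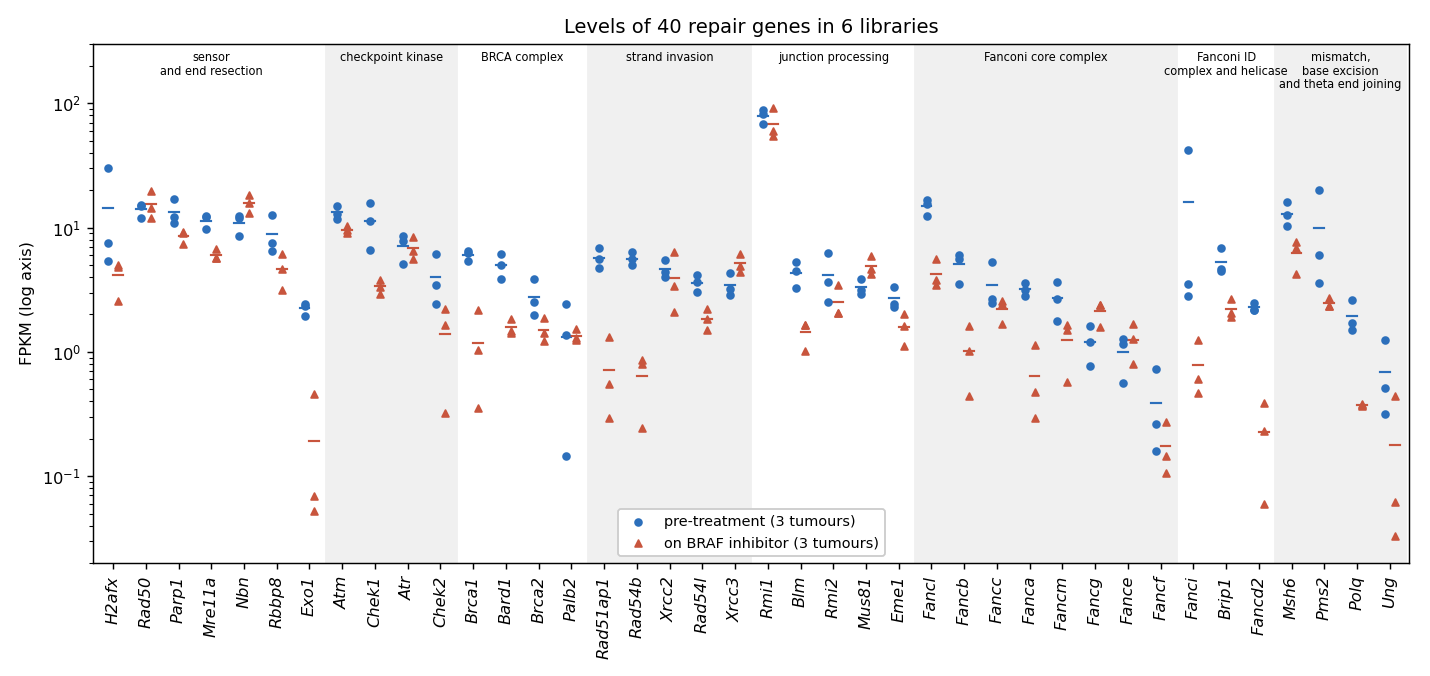
FPKM of the 40 repair genes (log axis) in each library, grouped by role and ordered by mean level within a role. Circles are the 3 pre-treatment tumours, triangles the 3 tumours on BRAF inhibitor, and short lines the group means. In 26 tested members all triangles lie below all circles, and pre-treatment tumour 1 stands far above the rest for Fanci and H2afx.

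**Figure D2:**
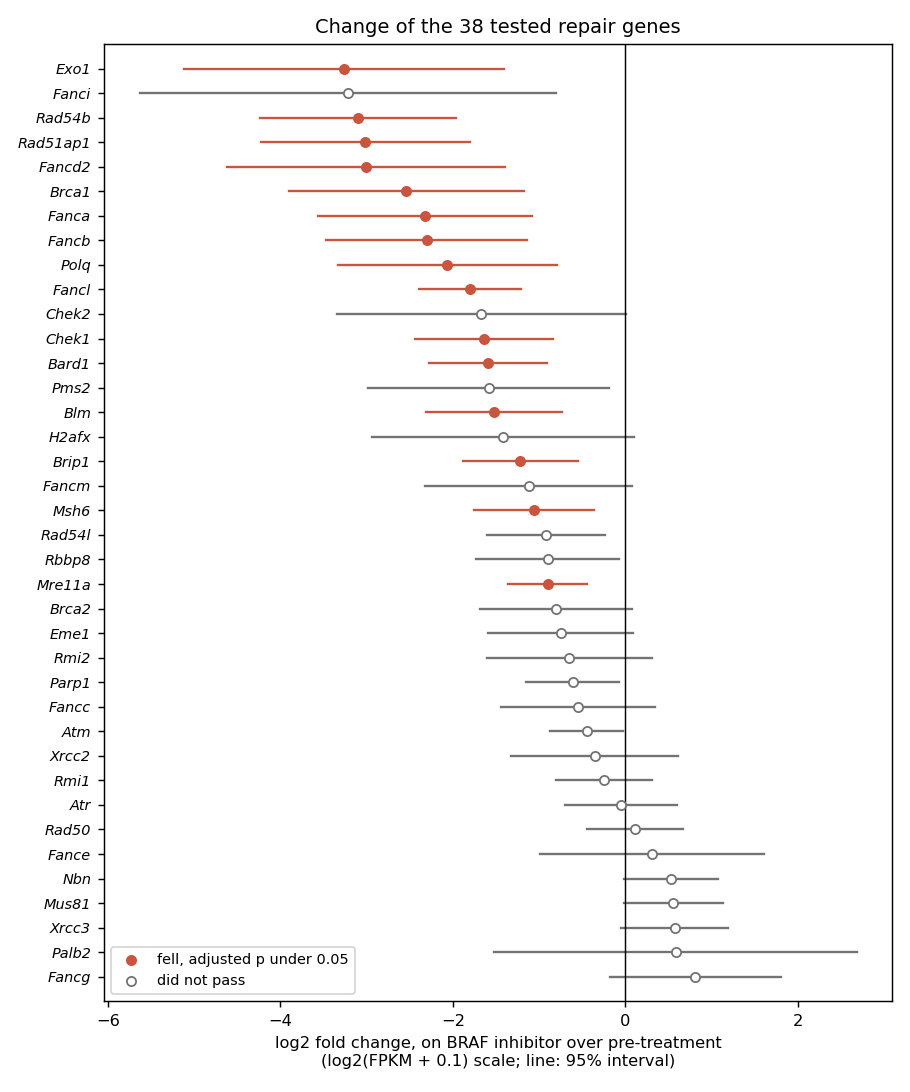
Log2 fold change, on BRAF inhibitor over pre-treatment, of the 38 tested repair genes with its 95% interval from limma. Filled points are the 15 genes that fell, open points the 23 that did not pass; the genes at the bottom, among them Fancg, Xrcc3 and Mus81, have positive values whose intervals reach below 0.

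The promoters were searched for the words of factors that drive or repress cell cycle genes. RefSeq windows (GRCm38.p6, 250 bases before to 50 after the start) were matched for 31 of the 40 genes, in 33 windows, and 3 words were searched on both strands. The E2F word (TTTCCCGC, TTTCGCGC, TTTGCCGC or TTTGGCGC), after the factors that drive S-phase genes, was found in 6 of the 33 windows (18.2%) and in 2.26% of all 32851 windows. The genes were Bard1, Brca2, Chek2, Fancg, Msh6 and Rmi1, of which Bard1 and Msh6 fell. CCAAT, the word of the factor NF-Y, was in 21 of the 33 windows (63.6%) and in 37.4% of all windows. TTTGAA, the word of the DREAM and MuvB repressor complexes, was in 3 (9.09%) and in 17.9% of all; the genes were Bard1, Eme1 and Polq. Among the genes tested and matched, CCAAT was in 8 of 12 that fell and 10 of 17 that did not pass, and the E2F word in 2 of 12 and 4 of 17. No matches overlapped. A match is a description of the letters and not a binding site. The first 4 windows below belong to the matched genes with the smallest p. The other two are of genes with a positive log2 fold change that did not pass, Xrcc3, with 6 CCAAT words, and Fancg, with the E2F word, chosen after their values were seen. All are written 5′ to 3′ on the gene's strand, with the searched words, or their reverse complement, in capitals.
Fancl, chr11:26386834-26387133, plus strand: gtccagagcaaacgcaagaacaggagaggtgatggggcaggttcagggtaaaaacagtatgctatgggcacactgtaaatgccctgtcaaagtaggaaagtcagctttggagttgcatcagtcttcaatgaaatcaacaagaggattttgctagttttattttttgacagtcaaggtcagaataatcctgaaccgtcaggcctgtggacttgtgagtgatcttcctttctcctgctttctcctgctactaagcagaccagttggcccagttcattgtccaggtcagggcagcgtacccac
Rad51ap1, chr6:126939538-126939837, minus strand: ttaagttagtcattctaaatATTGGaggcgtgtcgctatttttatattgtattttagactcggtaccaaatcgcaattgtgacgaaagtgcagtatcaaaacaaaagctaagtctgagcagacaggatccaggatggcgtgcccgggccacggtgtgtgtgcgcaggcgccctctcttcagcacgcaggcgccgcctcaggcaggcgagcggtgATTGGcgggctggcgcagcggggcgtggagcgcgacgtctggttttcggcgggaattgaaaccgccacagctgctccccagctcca
Bard1, chr1:71102923-71103222, minus strand: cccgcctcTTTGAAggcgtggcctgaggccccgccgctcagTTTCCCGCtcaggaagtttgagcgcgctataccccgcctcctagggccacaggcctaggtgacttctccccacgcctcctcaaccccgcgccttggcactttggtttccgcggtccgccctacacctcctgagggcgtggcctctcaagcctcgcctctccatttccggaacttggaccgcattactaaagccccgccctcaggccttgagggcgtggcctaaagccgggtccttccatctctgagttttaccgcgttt
Chek1, chr9:36726609-36726908, minus strand: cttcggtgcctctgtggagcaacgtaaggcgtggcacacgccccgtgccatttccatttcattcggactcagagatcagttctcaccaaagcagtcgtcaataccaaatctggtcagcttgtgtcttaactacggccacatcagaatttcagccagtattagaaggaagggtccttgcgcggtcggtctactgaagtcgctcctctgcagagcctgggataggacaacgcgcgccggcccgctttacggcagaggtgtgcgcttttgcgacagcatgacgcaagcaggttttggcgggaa
Xrcc3, chr12:111813830-111814129, minus strand: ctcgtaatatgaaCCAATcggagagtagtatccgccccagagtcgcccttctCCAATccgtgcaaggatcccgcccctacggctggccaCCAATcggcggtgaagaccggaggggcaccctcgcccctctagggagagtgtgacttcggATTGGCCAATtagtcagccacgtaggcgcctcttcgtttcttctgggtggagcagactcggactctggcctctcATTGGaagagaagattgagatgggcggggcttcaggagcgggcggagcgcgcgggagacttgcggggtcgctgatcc
Fancg, chr4:43010252-43010551, minus strand: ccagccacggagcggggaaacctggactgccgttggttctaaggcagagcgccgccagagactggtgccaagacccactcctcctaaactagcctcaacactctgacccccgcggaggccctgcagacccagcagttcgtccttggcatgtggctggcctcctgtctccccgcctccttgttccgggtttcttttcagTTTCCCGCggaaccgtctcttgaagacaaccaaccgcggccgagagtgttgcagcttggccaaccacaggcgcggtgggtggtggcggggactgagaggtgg

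The Fancl and Chek1 windows hold none of the 3 words as spelled above, and other spellings were not searched. Rad51ap1 has CCAAT, read from the other strand as ATTGG, at -230 and -36 from the start. Bard1 has TTTGAA at -242 and the E2F word at -209. Fancg has the E2F word at -52.

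Break sensing and resection. Of these 7 genes, 2 fell. Mre11a encodes the nuclease of the MRE11-RAD50-NBN complex, which binds broken ends first. It was at 12.2, 12.3 and 9.71 FPKM before treatment and at 6.72, 5.71 and 5.68 FPKM on the inhibitor. The groups did not overlap, and Mre11a fell from a mean of 11.4 ± 1.46 to 6.03 ± 0.590 FPKM (SD, n = 3 here and below), a log2 fold change of -0.90 ± 0.19 (SE; limma, adjusted p = 0.0203). Its partners did not pass. Rad50, the ATPase of the complex, was at 11.9, 15.2 and 15.03 FPKM before treatment and at 14.4, 19.6 and 12.01 FPKM on the inhibitor, with overlapping groups (log2 fold change 0.11, 95% interval -0.45 to 0.66). Nbn, the subunit that recruits the kinase ATM, was at 8.50, 11.9 and 12.4 FPKM and then at 15.7, 18.5 and 13.1 FPKM. All 3 treated values lay above the untreated ones, but Nbn did not pass (log2 fold change 0.53, interval -0.02 to 1.07; limma, adjusted p = 0.156).

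Exo1, the exonuclease that extends resection, was at 2.32, 1.96 and 2.43 FPKM before treatment and at 0.0694, 0.457 and 0.0529 FPKM on the inhibitor. All treated values were under 1 FPKM, and Exo1 fell 9.57-fold (log2 fold change -3.26 ± 0.78, SE; limma, adjusted p = 0.0298). Rbbp8, whose product CtIP starts resection together with MRE11, was at 12.6, 7.48 and 6.42 FPKM and then at 3.14, 4.64 and 6.14 FPKM. The groups lay apart by a small gap and Rbbp8 did not pass (log2 fold change -0.90; limma, adjusted p = 0.120). H2afx, the histone variant phosphorylated around breaks, was at 30.1, 7.54 and 5.42 FPKM before treatment and 5.02, 2.56 and 4.79 FPKM on the inhibitor. Its mean of 14.3 ± 13.7 FPKM before treatment rests on tumour 1, and its log2 fold change of -1.42 became -0.68 without that tumour, neither past the threshold. Parp1, the polymerase of poly(ADP-ribose) that marks broken DNA, was at 13.3 ± 3.15 and 8.56 ± 1.00 FPKM, did not pass (log2 fold change -0.61; limma, adjusted p = 0.106) and had groups apart. Mre11a did not pass when any library but pre-treatment tumour 3 was left out (limma, adjusted p up to 0.0742), nor did Exo1 when any 1 pre-treatment tumour or on-BRAFi tumour 1 was left out (up to 0.0556).

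Checkpoint kinases. Chek1 was the 1 kinase of 4 that fell. CHK1 is the kinase that ATR activates to hold the cell cycle at stalled forks. The gene was at 11.4, 6.59 and 15.8 FPKM before treatment and at 2.93, 3.34 and 3.81 FPKM on the inhibitor. The treated values lay close together below all untreated ones, and Chek1 fell from 11.2 ± 4.59 to 3.36 ± 0.439 FPKM (log2 fold change -1.63 ± 0.34, SE; limma, adjusted p = 0.0180). Chek2, the kinase downstream of ATM, was at 6.11, 2.41 and 3.45 FPKM and then at 0.320, 2.23 and 1.65 FPKM. Its groups were apart, but the interval was wide and it did not pass (log2 fold change -1.67, interval -3.35 to 0.01; limma, adjusted p = 0.147).

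The genes of the upstream kinases did not pass. Atm, which responds to double-strand breaks, was at 11.8, 13.0 and 15.03 FPKM before treatment and at 10.4, 8.97 and 9.58 FPKM on the inhibitor. The groups did not overlap, and the log2 fold change of -0.45 did not pass (limma, adjusted p = 0.128). Atr, which responds to single-stranded DNA at forks, was at 7.78, 5.09 and 8.62 FPKM and then at 5.63, 6.45 and 8.43 FPKM. Its groups overlapped fully (log2 fold change -0.05, interval -0.70 to 0.60). Chek1 passed with pre-treatment tumour 2 left out and missed the threshold without any other library (limma, adjusted p up to 0.0855).

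BRCA complexes. Brca1 and Bard1, which encode the BRCA1-BARD1 ubiquitin ligase, both fell, and the genes for PALB2 and BRCA2, which it recruits, did not pass. Brca1 was at 5.36, 6.28 and 6.49 FPKM before treatment and at 1.04, 2.17 and 0.352 FPKM on the inhibitor. The groups lay far apart, and Brca1 fell from 6.04 ± 0.601 to 1.19 ± 0.918 FPKM (log2 fold change -2.54 ± 0.58, SE; limma, adjusted p = 0.0245). Bard1, its obligate partner, was at 6.11, 3.84 and 5.03 FPKM and then at 1.85, 1.46 and 1.41 FPKM. The treated values were close to each other, and Bard1 fell from 4.99 ± 1.14 to 1.57 ± 0.241 FPKM (log2 fold change -1.59 ± 0.29, SE; limma, adjusted p = 0.0118).

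Brca2, which acts on resected ends before strand invasion, was at 1.97, 3.85 and 2.51 FPKM before treatment and at 1.23, 1.87 and 1.42 FPKM on the inhibitor. The groups lay just apart and Brca2 did not pass (log2 fold change -0.81, interval -1.69 to 0.08; limma, adjusted p = 0.178). Palb2, the bridge between BRCA1 and BRCA2, was at 0.146, 2.42 and 1.37 FPKM and then at 1.24, 1.52 and 1.295 FPKM. Pre-treatment tumour 1 was far below the other libraries, and the log2 fold change of 0.58 turned to -0.41 without it, neither past the threshold. Brca1 did not pass when any 1 pre-treatment tumour or on-BRAFi tumour 1 was left out (limma, adjusted p up to 0.0942), nor Bard1 without pre-treatment tumour 3 (0.0511).

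Strand invasion. Rad54b and Rad51ap1 had among the steepest falls of all members, and Rad54l, Xrcc2 and Xrcc3 did not pass. Rad54b encodes a motor protein that helps strands invade the sister chromatid. It was at 5.57, 4.999 and 6.35 FPKM before treatment and at 0.862, 0.801 and 0.242 FPKM on the inhibitor. No treated value reached 1 FPKM, and Rad54b fell from 5.64 ± 0.678 to 0.635 ± 0.341 FPKM (log2 fold change -3.10 ± 0.48, SE; limma, adjusted p = 0.00672, and at most 0.0372 with any 1 library left out). Rad51ap1, which stimulates joint molecule formation, was at 4.74, 6.80 and 5.62 FPKM and then at 0.551, 1.31 and 0.293 FPKM. The groups lay far apart, and Rad51ap1 fell 8.09-fold (log2 fold change -3.02 ± 0.51, SE; limma, adjusted p = 0.00938).

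Rad54l, the other RAD54 motor, was at 3.62, 4.12 and 3.02 FPKM before treatment and at 1.49, 1.85 and 2.22 FPKM on the inhibitor. The groups were apart and Rad54l did not pass (log2 fold change -0.92; limma, adjusted p = 0.0680). Xrcc2, which acts in strand invasion, was at 4.03, 5.49 and 4.40 FPKM and then at 6.35, 3.39 and 2.10 FPKM, with overlapping groups (log2 fold change -0.36, interval -1.32 to 0.61). Xrcc3, which acts in strand invasion and also late at the junctions, was at 4.34, 2.85 and 3.19 FPKM and then at 6.16, 4.89 and 4.41 FPKM. Its treated values all lay above the untreated ones, and it did not pass (log2 fold change 0.57, interval -0.05 to 1.18; limma, adjusted p = 0.174) but rose after rescaling to the same total. Rad51ap1 missed the threshold without pre-treatment tumour 2 or on-BRAFi tumour 1 (limma, adjusted p up to 0.0514).

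Junction processing. Of the 5 genes whose products take joined molecules apart, Blm fell. BLM is the helicase that dissolves double Holliday junctions together with RMI1 and RMI2. Blm was at 3.27, 4.50 and 5.26 FPKM before treatment and at 1.65, 1.66 and 1.03 FPKM on the inhibitor. The groups did not overlap, and Blm fell from 4.34 ± 1.01 to 1.45 ± 0.363 FPKM (log2 fold change -1.53 ± 0.33, SE; limma, adjusted p = 0.0216). Rmi1 had the highest level of all members in every library, at 68.3, 87.5 and 82.4 FPKM and then at 59.4, 90.8 and 54.8 FPKM. Its groups overlapped (log2 fold change -0.25, interval -0.80 to 0.31). Rmi1 shares 330 exon bases, 5.02% of its own, with the more abundant gene Hnrnpk on the opposite strand (450 ± 22.7 and 270 ± 14.4 FPKM), and the sources used here do not say how reads there were divided. Rmi2, at 4.15 ± 1.90 and 2.51 ± 0.797 FPKM, did not pass (log2 fold change -0.65; limma, adjusted p = 0.3003).

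Mus81 and Eme1 encode the subunits of a nuclease that cuts joint molecules, and their fold changes had opposite signs without either passing. Mus81 was at 2.92, 3.15 and 3.88 FPKM before treatment and at 5.90, 4.66 and 4.23 FPKM on the inhibitor, with all treated values higher (log2 fold change 0.55; limma, adjusted p = 0.159). Eme1 was at 3.36, 2.31 and 2.44 FPKM and then at 2.03, 1.62 and 1.11 FPKM, with all treated values lower (log2 fold change -0.75; limma, adjusted p = 0.185). Blm passed with pre-treatment tumour 1 left out and missed the threshold without any other library (limma, adjusted p up to 0.0827).

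Fanconi core complex. Fancl, Fanca and Fancb fell, 3 of 7 tested members of the complex. Fancl encodes the ubiquitin ligase subunit that modifies FANCD2. It was at 15.5, 16.8 and 12.4 FPKM before treatment and at 3.42, 5.55 and 3.81 FPKM on the inhibitor. All untreated values lay above all treated ones, and Fancl fell from 14.9 ± 2.25 to 4.26 ± 1.14 FPKM (log2 fold change -1.80 ± 0.25, SE; limma, adjusted p = 0.00450, the smallest of all members, and at most 0.0316 with any 1 library left out). Vrk2 on the opposite strand shares 13.7% of the exon bases of Fancl and was at 9.52 ± 0.740 and 6.69 ± 1.29 FPKM (log2 fold change -0.52; limma, adjusted p = 0.136). Fancb, which forms the ligase module with FANCL, was at 5.62, 3.50 and 6.03 FPKM and then at 0.443, 1.61 and 1.02 FPKM. The groups were apart, and Fancb fell 4.95-fold (log2 fold change -2.31 ± 0.49, SE; limma, adjusted p = 0.02001).

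Fanca, a scaffold of the complex, was at 3.61, 2.80 and 3.17 FPKM before treatment and at 0.473, 1.14 and 0.295 FPKM on the inhibitor. Again the groups did not overlap, and Fanca fell 5.01-fold (log2 fold change -2.32 ± 0.52, SE; limma, adjusted p = 0.0241). Fancm, the motor that anchors the complex on DNA, was at 2.69 ± 0.932 and 1.24 ± 0.583 FPKM with groups apart, and did not pass (log2 fold change -1.12; limma, adjusted p = 0.170). The remaining core genes did not pass. Fancc was at 3.46 ± 1.56 and 2.23 ± 0.477 FPKM (log2 fold change -0.55), and Fance, which contacts FANCD2, at 0.997 ± 0.378 and 1.25 ± 0.441 FPKM (log2 fold change 0.31, interval -0.99 to 1.61). Fancg, a partner of FANCA, was at 1.21, 1.601 and 0.768 FPKM and then at 2.38, 1.595 and 2.38 FPKM. The groups overlapped by pre-treatment tumour 2 and on-BRAFi tumour 2, and Fancg had the most positive log2 fold change of all members (0.81, interval -0.18 to 1.81; limma, adjusted p = 0.221). Fancf was below the filter at 0.161 to 0.734 FPKM before treatment and 0.105 to 0.272 FPKM on the inhibitor. Fanca and Fancb each passed with on-BRAFi tumour 2 left out and missed the threshold without any other library (limma, adjusted p up to 0.0774 and 0.0796).

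The FANCD2-FANCI pair and BRIP1. Fancd2 and Brip1 fell, and Fanci had a large negative fold change that did not pass. FANCD2 and FANCI form the clamp that the core complex marks with ubiquitin. Fancd2 was at 2.18, 2.48 and 2.19 FPKM before treatment and at 0.230, 0.387 and 0.0601 FPKM on the inhibitor. The untreated values were close together, and Fancd2 fell 8.06-fold (log2 fold change -3.01 ± 0.68, SE; limma, adjusted p = 0.0242). Fanci was at 42.1, 2.79 and 3.54 FPKM and then at 0.610, 1.25 and 0.471 FPKM. The groups did not overlap, but pre-treatment tumour 1 was far above every other library, and Fanci did not pass with it (log2 fold change -3.22, interval -5.63 to -0.81; limma, adjusted p = 0.0700) or without it (-1.99; 0.0643). Brip1, which encodes the helicase FANCJ that binds BRCA1, was at 4.48, 4.604 and 6.88 FPKM and then at 2.67, 2.04 and 1.91 FPKM. The groups were apart, and Brip1 fell from 5.32 ± 1.35 to 2.21 ± 0.403 FPKM (log2 fold change -1.22 ± 0.28, SE; limma, adjusted p = 0.0261). Fancd2 missed the threshold without pre-treatment tumour 2 (limma, adjusted p = 0.0534), and Brip1 whichever library was left out (up to 0.0912).

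Mismatch repair, base excision and theta end joining. Msh6 and Polq fell, Pms2 did not pass and Ung was below the filter. Polq encodes polymerase theta, which joins resected ends through short matching stretches when recombination fails. It was at 1.702, 2.596 and 1.504 FPKM before treatment and at 0.368, 0.373 and 0.379 FPKM on the inhibitor. The treated values were nearly equal, and Polq fell from 1.93 ± 0.582 to 0.373 ± 0.00586 FPKM (log2 fold change -2.07 ± 0.53, SE; limma, adjusted p = 0.0383). Msh6, a mismatch-recognition subunit, was at 16.0, 12.6 and 10.2 FPKM and then at 6.91, 4.20 and 7.62 FPKM. The groups were apart, and Msh6 fell 2.08-fold, the call nearest the threshold (log2 fold change -1.06 ± 0.29, SE; limma, adjusted p = 0.0471). Pms2, of the nuclease that acts after mismatch recognition, was at 3.57, 20.1 and 6.04 FPKM and then at 2.34, 2.74 and 2.34 FPKM. Pre-treatment tumour 2 was far above the rest, and the log2 fold change of -1.58 became -0.89 without it, neither past the threshold. Ung, the uracil glycosylase, was at 0.315 to 1.24 FPKM before treatment and 0.0329 to 0.440 FPKM on the inhibitor. Polq missed the threshold without pre-treatment tumour 2 (limma, adjusted p = 0.0638), and Msh6 whichever library was left out (up to 0.141).

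Because partner proteins work together, the log2 ratio of 10 partner pairs was also taken within each library, where the scaling of the library cancels apart from the pseudocount; the pairs were chosen after the values were seen. In 6 pairs the 3 treated ratios all lay below the 3 untreated ones. Fancl over Fancg was at 3.58, 3.31 and 3.85 before treatment and at 0.51, 1.74 and 0.66 on the inhibitor, the largest difference of the 10 pairs (-2.61). Mre11a over Nbn was at 0.51, 0.05 and -0.35 and then at -1.21, -1.67 and -1.19. Eme1 over Mus81 was at 0.19, -0.43 and -0.65 and then at -1.50, -1.46 and -1.84. Of the genes in these 3 pairs, Fancl and Mre11a fell and the others did not pass. The differences were -1.73 for Brca1 over Brca2, -1.28 for Blm over Rmi1 and -1.01 for Mre11a over Rad50. Since the pairs were chosen on these values, the ratios are a description and no test is given. Ratios overlapped between the groups for Brca1 over Bard1, Fancd2 over Fanci, Chek1 over Chek2 and Atr over Atm, with differences of -0.95, 0.21, 0.04 and 0.40.

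**Figure D3:**
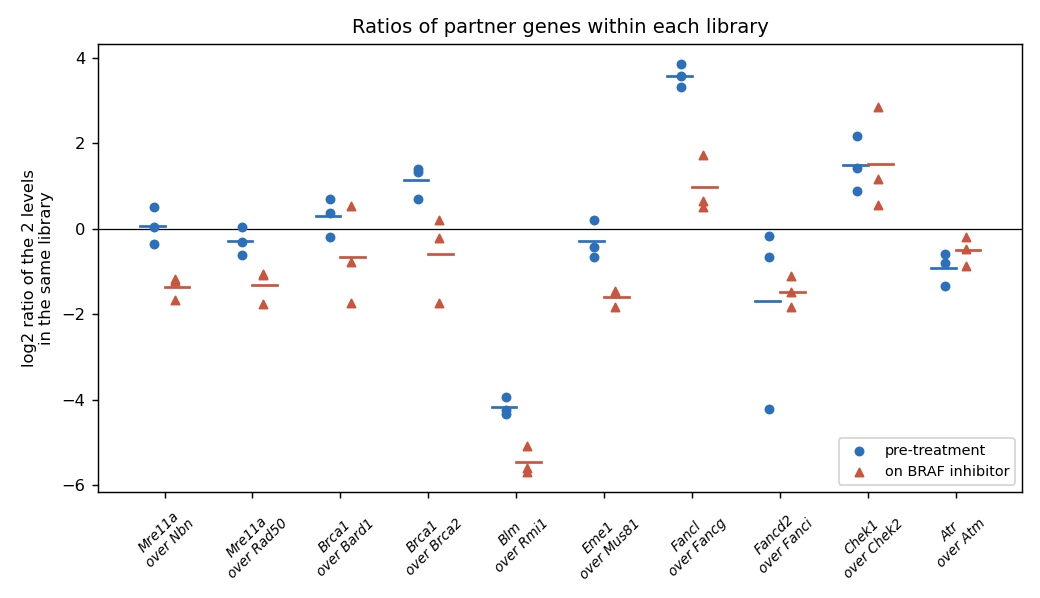
Log2 ratio of the levels of 2 partner genes within the same library, for 10 pairs. Circles are the 3 pre-treatment tumours, triangles the 3 tumours on BRAF inhibitor and lines the group means; the groups are apart in 6 pairs, widest for Fancl over Fancg, and overlap in the pairs Brca1 over Bard1, Fancd2 over Fanci, Chek1 over Chek2 and Atr over Atm.

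Among 38 other genes of the same pathways, 36 were tested, of which 5 fell (13.9%) and 2 rose (5.56%), near the 10.3% and 8.76% of all tested genes; their median log2 fold change was -0.34, and 0.19 after rescaling to the same total. Rpa3, the smallest subunit of the single-strand binding protein RPA, fell from 145 ± 21.9 to 31.4 ± 7.32 FPKM (log2 fold change -2.22; limma, adjusted p = 0.00194). Psmc3ip, the HOP2 protein known from meiotic strand exchange, fell from 14.4 ± 2.29 to 3.38 ± 1.03 FPKM (-2.09; 0.00448). Both passed whichever library was left out. Shfm1, the DSS1 protein that binds BRCA2 and is also a proteasome subunit, fell from 416 ± 130 to 105 ± 44.0 FPKM (-2.03; 0.0133). Ube2t, the conjugating enzyme that serves FANCL, fell from 5.69 ± 0.693 to 2.44 ± 0.778 FPKM (-1.22; 0.0303). Sfr1 and Swi5, which together assist strand exchange and were high in both groups, did not pass, at 191 ± 7.61 and 146 ± 4.76 FPKM and at 171 ± 43.7 and 89.7 ± 23.4 FPKM (limma, adjusted p = 0.105 and 0.0563). The fifth fall was Rpa1 and the 2 rises were the crosslink nuclease gene Fan1 and the helicase gene Wrn, named after their values were seen, with log2 fold changes of -1.06, 1.10 and 0.72 (limma, adjusted p = 0.0452, 0.0309 and 0.0304). Shfm1 missed the threshold without pre-treatment tumour 1 or 3 or on-BRAFi tumour 3 (limma, adjusted p up to 0.0568), Ube2t without any library but on-BRAFi tumour 2 (0.107), Wrn without any but pre-treatment tumour 3 (0.0897), and Rpa1 and Fan1 without any 1 of the 6 (0.131 and 0.0942). Ube2t and Rpa1 also missed it after rescaling to the same total.

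Classical end joining, which seals breaks without a template and works throughout the cell cycle, was measured in 14 tested genes. None fell and 1 rose (7.14%) in limma's test, where 10.3% and 8.76% of all tested genes did. At an unadjusted p below 0.05, 0 were lower and 3 higher, where 17.6% of all tested genes were lower and 16.6% higher. The list's median was 0.25 on the log2 scale. After rescaling to the same total it was 0.78 with 2 rises among the 14. In that fit the median of all tested genes was 0.53 and 16.6% of them were called higher. Aplf, a scaffold that recruits the ligase complex, was at 6.01, 4.51 and 4.44 FPKM before treatment and at 12.3, 9.91 and 10.1 FPKM on the inhibitor. It rose from 4.98 ± 0.889 to 10.8 ± 1.33 FPKM with groups apart (log2 fold change 1.10; limma, adjusted p = 0.0141), but missed the threshold without pre-treatment tumour 2 or 3 or on-BRAFi tumour 1 or 3 (up to 0.0695). Prkdc, the catalytic subunit of DNA-PK, was at 4.99 ± 0.522 and 7.72 ± 1.28 FPKM, and Lig4, the ligase of the route, at 1.93 ± 0.102 and 3.15 ± 0.410 FPKM, and neither passed (limma, adjusted p = 0.0938 and 0.125). The end-binding subunit Xrcc5 was at 17.3 ± 3.29 and 13.1 ± 2.69 FPKM, the resection inhibitor Rif1 at 21.1 ± 3.24 and 17.9 ± 2.50 FPKM, and the ligase cofactor Xrcc4 at 16.1 ± 4.95 and 16.6 ± 2.06 FPKM. The difference between the end-joining and recombination lists was not tested.

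Cell cycle genes fell in the same tumours. All 20 genes of a cell cycle reference list fell (median -2.75 on the log2 scale), and their summed level went from 552 to 713 FPKM before treatment to 112 to 155 FPKM on the inhibitor. Mki67 fell from 38.6 ± 13.96 to 3.17 ± 1.51 FPKM and Top2a from 91.8 ± 15.3 to 16.5 ± 5.91 FPKM. The mean log2 level of the list fell by 2.91, and relative to it 35 of the 40 repair genes were higher on the inhibitor and 5 lower; 97.3% of all tested genes were higher relative to it. The 5 were Exo1 (-0.35), Fanci (-0.31), Rad54b (-0.19), Rad51ap1 (-0.11) and Fancd2 (-0.10), all with overlapping groups on this relative scale. The groups also overlapped for 8 of the 35, among them Brca1 (0.37), Fancb (0.60) and Polq (0.84), which fell. Chek1 (1.27), Bard1 (1.32), Fancl (1.11) and Blm (1.38) were higher relative to the list in all 3 treated tumours. The genes farthest above it were Fancg (3.72), Palb2 (3.49), Xrcc3 (3.48), Mus81 (3.46) and Nbn (3.43). Of 10 housekeeping genes, 5 fell as well, where 10.3% of all tested genes were lower. Their median was -0.54 on the log2 scale. After rescaling to the same total, 3 of the 10 fell, where 4.29% of all tested genes were lower, and their median was 0.01. The part of the cell cycle and of the share of cycling cells in the repair gene values was not tested.

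**Figure D4:**
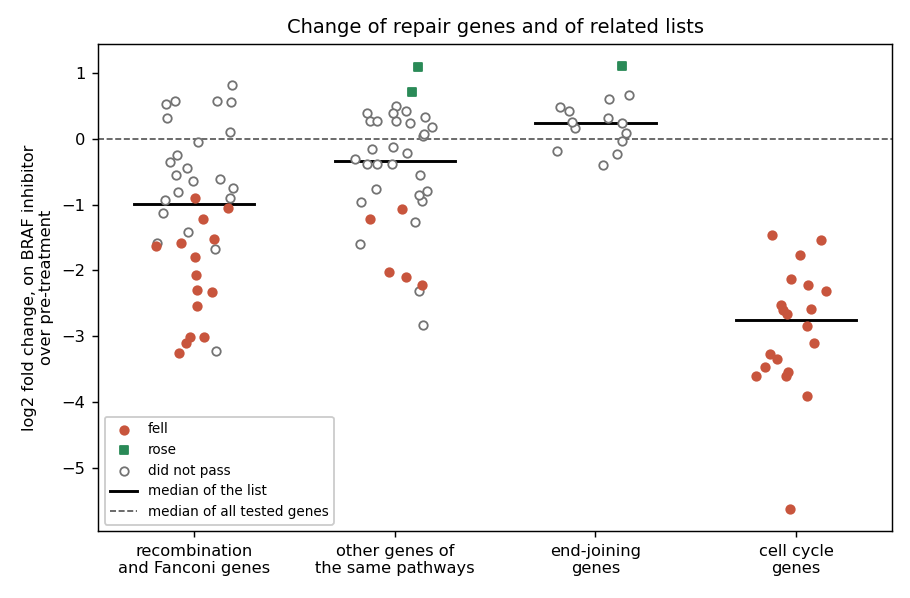
Log2 fold change, on BRAF inhibitor over pre-treatment, of each tested gene in 4 lists: 38 recombination and Fanconi genes, 36 other genes of the same pathways, 14 end-joining genes and 20 cell cycle genes. Filled points fell or rose, open points did not pass, bars are list medians (-0.99, -0.34, 0.25 and -2.75) and the dashed line is the median of all tested genes.

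The libraries carry no strand information, so reads inside bases shared by genes on opposite strands cannot be assigned by strand. In the GENCODE M21 annotation (GRCm38, used here for names and overlaps, not the build of the files), 24 of the 40 repair genes share exon bases with another gene and 8 share at least 10%. Rad54b shares 35.8% with Fsbp on the same strand, which was at 2.24 ± 1.35 and 0.701 ± 0.680 FPKM, so the split of reads between these genes is uncertain. Fanca shares 10.5% with Zfp276, which was at 1.93 ± 0.582 and 1.82 ± 0.586 FPKM. Fanci shares 16.0% with Polg, at 3.44 ± 0.506 and 2.53 ± 0.306 FPKM. Polg was at 3.79, 2.86 and 3.67 FPKM in pre-treatment tumours 1, 2 and 3. Mus81 shares 4.85% with Efemp2, a matrix gene that rose from 24.8 ± 2.81 to 42.4 ± 7.63 FPKM (limma, adjusted p = 0.0375). These neighbours, with Hnrnpk and Vrk2, were named after their values were seen, and their part in the repair gene values was not tested.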

How the data were processed

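Per the labels' protocols, RNA of sorted CD45-negative cells (QIAGEN RNeasy micro kit) was made into unstranded TruSeq libraries from poly(A) RNA; the sources used here conflict on single-end or paired-end reads. The authors deposited a table of FPKM by gene symbol. Per the submitters' processing notes it involved mm9, TopHat2, TopHat, Cuffnorm and Cuffdiff; for their versions, their roles and the annotation, nothing is given in the sources used here. FPKM are not counts and whole reads could not be recovered, so no depth or counting interval is given.

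From the deposited FPKM, log2(FPKM + 0.1) was computed, genes with a mean of at least 1 FPKM were kept (12075 of 23940; 5880 were at 0 in all 6 libraries), and limma 3.58.1 (R 4.3.3; lmFit, eBayes with trend) compared 3 on-BRAFi with 3 pre-treatment libraries, two-sided, with Benjamini-Hochberg adjustment over all tested genes and a threshold of 0.05. Fold changes on this log2 scale understate those of low genes. Alternatives were other pseudocounts (1 and 0.01), filters, scalings and limma settings, the tumour number as a block, and each library left out.

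The 40 repair genes, the other lists and the tests were chosen with earlier results of these data known. All 40 are named; of the other pathway and end-joining lists, the 4 with the smallest p and the 3 with the highest mean, and others are said to be chosen after their values were seen. Protein sequences were not used here.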

Additional observations from a re-analysis of the deposited data

How the results depend on the processing

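The number of repair genes that fell was 15 with pseudocounts of 1 and 0.01, median of ratios scaling, quantile normalization and limma without a trend. It was 14 without a filter and 17 with array weights. In the fits with 15, 8.62% to 11.2% of all tested genes were lower. Without a filter 6.17% were lower, and with array weights 1449 of 12075, against 1249 in the main fit. Without a trend, Msh6 no longer passed and Rad54l fell. The number of repair genes that fell was 4 with a minimum mean of 5 FPKM, where 14 were tested and 14.2% of all tested genes were lower. With libraries rescaled to the same total it was 8 (1 rose), where 4.29% of all tested genes were lower and 16.6% higher. With that rescaling after leaving out short RNAs it was 9, and 4 rose (Fancg, Mus81, Nbn and Xrcc3). Of all tested genes 5.63% were lower and 31.4% higher there. With 1 library left out the number was 4 to 10, where 5.21% to 7.35% of all tested genes were lower. Of the other pathway genes, 5 fell; 3 fell without a filter, 3 under each rescaling, 9 with array weights and 2 to 6 with 1 library left out. No end-joining gene fell in any of these fits.

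With the tumour number as a replicate block, 5 repair genes fell (Bard1, Chek1, Fancl, Rad51ap1 and Rad54b). Of the 36 other pathway genes tested, 3 fell in that fit, where 6.1% of all tested genes were lower. Same-numbered tumours did not deviate together (correlations -0.03, 0.01 and -0.09). With 3 tumours a group, these correlations cannot settle whether the numbers pair the tumours.

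No gene that fell changed sign in any fit. Among genes that did not pass, log2 fold changes turned sign after rescaling to the same total, with and without short RNAs, for Atm (0.0899 and 0.14), Atr (0.49 and 0.54), Xrcc2 (0.18 and 0.23), Rmi1 (0.30 and 0.35) and, without short RNAs, Fancc (0.0265). With array weights Atr was at 0.0132 and Palb2 at -0.0628, and with quantile normalization Rmi1 was at 0.0628. With 1 library left out the ranges were -0.0844 to 0.27 for Rad50, -0.28 to 0.0969 for Atr, -0.41 to 1.27 for Palb2, -0.76 to 0.0147 for Xrcc2 and -0.0189 to 0.58 for Fance. The causes were not tested. Having 3 tumours a group limits which genes could pass, and low levels limit the fold changes.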
